A study of Mus musculus with 2 samples.

Results

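The 10 genes described here are the mouse MHC class II genes and their coactivator: Cd74, H2-Aa, H2-Ab1, H2-Eb1, H2-DMa, H2-DMb1, H2-DMb2, H2-Oa, H2-Ob and Ciita. They were chosen by name, out of 31053 genes counted, and all 10 had UMIs (unique molecular identifiers, each 1 captured RNA molecule) in both libraries. The study profiled single LSK cells, which are lineage-low or lineage-negative, Sca1-positive and c-Kit-high, a gate that holds blood stem and early progenitor cells. One library came from the spleen and 1 from the bone marrow of C57BL/6 mice injected at 6 to 8 weeks of age with 750000 Hepa1-6 liver tumour cells in the left liver lobe. Both groups therefore carry the orthotopic tumour, and no tumour-free mice were analysed here. How many mice were pooled for a library is not stated, and the enrichment on magnetic beads was by lineage depletion or by CD117, without a statement of which was used for which tissue. The spleen library held 6546 cells and the bone marrow library 10088 cells. Each cell has a deposited cluster name, which is used here unchanged: HSC-1, HSC-2, HSC-3, DCP, LP, MEP, MP and MCP.

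MHC class II molecules display peptides from taken-up protein to CD4 T cells. Each is an alpha chain and a beta chain, encoded by H2-Aa and H2-Ab1 for the I-A molecule, which assemble on the invariant chain Cd74. H2-DM, made of H2-DMa with H2-DMb1 or H2-DMb2, then exchanges the remnant of Cd74 for a peptide, and H2-O, made of H2-Oa and H2-Ob, restrains H2-DM. Ciita binds no DNA itself. It is held on class II promoters by RFX, CREB and NF-Y, which sit on short elements called the X and Y boxes. Dendritic cells, B cells and macrophages are the classical cells that transcribe these genes constantly or on activation. C57BL/6 mice make no I-E molecule because H2-Ea is not transcribed in the strain, although its partner H2-Eb1 is.

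Of the 10 genes, 8 lie on chromosome 17 of mm10, in the class II region. H2-Aa spans 34282744 to 34287823 on the minus strand. The other 7 are on the plus strand: H2-Ab1 at 34257689 to 34269419, H2-Eb1 at 34305867 to 34316674, H2-DMa at 34119541 to 34139101, H2-DMb2 at 34143307 to 34151555, H2-DMb1 at 34153072 to 34160230, H2-Oa at 34092340 to 34095234 and H2-Ob at 34238903 to 34254414. H2-DMa overlaps Brd2, and H2-Eb1 overlaps the antisense model Gm20513, each on the opposite strand. The use of strand in the counting is not given in the sources used here, so reads of such pairs may not be told apart. H2-DMb1 and H2-DMb2 are near copies, but none of the 90-base windows in the last 400 bases of their longest transcripts, where a 3′ assay counts, was shared.

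Promoter windows in RefSeq (build GRCm38.p6) were found for 7 of the 10 genes. Stretches of 6 are shown, each with the letters of the Y box core at most 91 bases before the start. The stretch of H2-DMa, with a core 199 bases before the start, is not shown. The shown stretches of H2-Eb1, H2-DMb1 and H2-DMb2 also hold the X box core. Capitals mark the Y box core GATTGG and the X box core AACNGATG, searched on both strands in the 250 bases before the start. Only exact matches are marked, so a box with other letters would not show. H2-Eb1 holds a second Y box core on the other strand, read here as CCAATC. The core letters do not overlap each other. The positions, on chromosome 17, are 34287842 to 34287932 (minus strand) for H2-Aa and, on the plus strand, 34305747 to 34305837 for H2-Eb1, 34153069 to 34153159 for H2-DMb1, 34145098 to 34145188 for H2-DMb2, 34092275 to 34092365 for H2-Oa and 34238787 to 34238877 for H2-Ob.
H2-Aa: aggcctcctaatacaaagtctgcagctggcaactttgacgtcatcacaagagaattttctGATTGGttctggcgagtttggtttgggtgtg
H2-Eb1: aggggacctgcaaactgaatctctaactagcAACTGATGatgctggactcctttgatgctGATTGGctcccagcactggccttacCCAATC
H2-DMb1: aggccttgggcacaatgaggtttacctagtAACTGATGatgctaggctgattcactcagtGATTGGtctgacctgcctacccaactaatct
H2-DMb2: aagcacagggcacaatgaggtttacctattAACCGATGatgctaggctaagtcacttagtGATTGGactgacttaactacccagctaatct
H2-Oa: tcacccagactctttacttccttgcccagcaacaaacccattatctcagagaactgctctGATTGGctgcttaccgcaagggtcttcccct
H2-Ob: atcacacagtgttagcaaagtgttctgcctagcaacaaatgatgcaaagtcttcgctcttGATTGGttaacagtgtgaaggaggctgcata

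The Y box core GATTGG on the gene's strand began 44 to 91 bases before the start in these 6 windows. H2-DMa has a window for each of 2 starts. The one had neither core and the other had a Y box core 199 bases before the start. Both cores occurred in H2-Eb1, H2-DMb1 and H2-DMb2, with GATTGG 21 bases after the X box core in H2-Eb1 and 22 bases after it in the other two. Among 32851 promoter windows of the genome table, 14.6% held the Y box core, 1.98% the X box core and 0.25% both. These are matches of letters, and no binding was measured. The other two genes lie elsewhere. Cd74 is on chromosome 18, from 60803848 to 60812652, and Ciita on chromosome 16, from 10480059 to 10528418, both on the plus strand.

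The unit of all levels below is the count of a gene's UMIs scaled to 1000000 UMIs of the cells summed (CPM, counts per 1000000). Intervals are exact Poisson or, for shares of cells, exact Clopper-Pearson intervals at 95%, and cover counting error only. With 1 library per tissue there is no replicate error and no test, so genes are described by size: a gene counted as higher or lower in spleen if (CPM + 1) differed at least 2-fold and its mean over both libraries reached 10 CPM. The mean is over both libraries, so a gene under 10 CPM in bone marrow can pass only where spleen is higher. For such genes the limit itself favours a call of higher. Over all cells these were Ciita, at 5.63 CPM in bone marrow, and H2-DMb2, at 2.69 CPM. Likewise a gene under 10 CPM in spleen can pass only where bone marrow is higher, and the limit then favours a call of lower. Levels of different genes are not compared with each other, because the counts come from 3′ ends and are not scaled by length. The spleen library held 85937174 UMIs, with a median of 9978 per cell, and the bone marrow library 73740963 UMIs, with a median of 5991 per cell. A total of 16 cell barcodes occurred in both libraries, and leaving these cells out ended none of the calls below.

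Class II RNA was far more abundant in the spleen LSK library. Cd74 had 5449 CPM in spleen and 129 CPM in bone marrow, a ratio of 42.2 (interval 41.4 to 43.1). H2-Aa had 2734 CPM in spleen and 72.0 CPM in bone marrow, a 38.0-fold ratio. The chains of I-A were thus both high in spleen, H2-Ab1 at 2665 CPM in spleen against 109 CPM in bone marrow. H2-Eb1, the beta chain left without a partner in this strain, had 2401 CPM in spleen and 53.9 CPM in bone marrow. Ciita, the coactivator, had 129 CPM in spleen and 5.63 CPM in bone marrow, a ratio of 23.0 (20.8 to 25.4).

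The genes that edit the peptide differed less. H2-DMa had 374 CPM in spleen and 172 CPM in bone marrow, and H2-DMb1 had 153 CPM in spleen and 35.9 CPM in bone marrow. H2-DMb2 had 29.0 CPM in spleen and 2.69 CPM in bone marrow. H2-Oa had 88.9 CPM in spleen and 28.0 CPM in bone marrow, whereas H2-Ob, its partner, had 34.7 CPM in spleen and 32.4 CPM in bone marrow, a ratio of 1.07 (1.01 to 1.13). In all, 9 of the 10 genes were at least 2-fold higher in spleen over all cells, against 4.15% of 8644 genes measured, and none was lower, against 6.55%. The members' median log2 ratio was 3.66, beside -0.11 for all measured genes. H2-Ob was the gene that stayed between the limits. Without the cells whose deposited label names an antigen-presenting type, described below, 4 of 8 measured genes were higher, against 4.42% of genes. H2-Ob was then lower, at 15.7 CPM in spleen and 33.0 CPM in bone marrow, against 6.59%. Among the remaining cells of HSC-1, H2-Ob had 36.9 CPM in spleen and 35.8 CPM in bone marrow. Among those of MEP it had 2.10 CPM in spleen and 7.86 CPM in bone marrow. The spleen library also held more cells of the cluster MP, with 1413 cells or 21.6%, against 118 cells or 1.17% in bone marrow, and without that cluster 6 of the 9 calls were kept, those of H2-DMa, H2-DMb2 and H2-Oa being lost. H2-DMa and H2-Oa were then under 2-fold, while H2-DMb2, at 12.5 CPM in spleen and 2.19 CPM in bone marrow, had a mean under 10 CPM.

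The levels by cluster show where the RNA was. In MP, Cd74 had 19966 CPM in spleen and 8073 CPM in bone marrow, and Ciita 486 CPM in spleen and 256 CPM in bone marrow. In DCP the libraries parted most: Cd74 had 14141 CPM in spleen and 8.70 CPM in bone marrow, from 31 UMIs, and Ciita 285 CPM in spleen and 1.12 CPM in bone marrow, from 4 UMIs. MP was thus the bone marrow cluster with abundant class II RNA, while in spleen MP and DCP both had it. HSC-1, the largest cluster of bone marrow, had 4136 CPM of Cd74 in spleen and 34.9 CPM in bone marrow. The erythroid cluster MEP was lowest in both libraries, with 208 CPM of Cd74 in spleen and 5.72 CPM in bone marrow. MEP carried 7 of 8 erythroid markers above 10 CPM in each library, which sum to 4628 CPM in spleen and 3733 CPM in bone marrow.

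**Figure D1:**
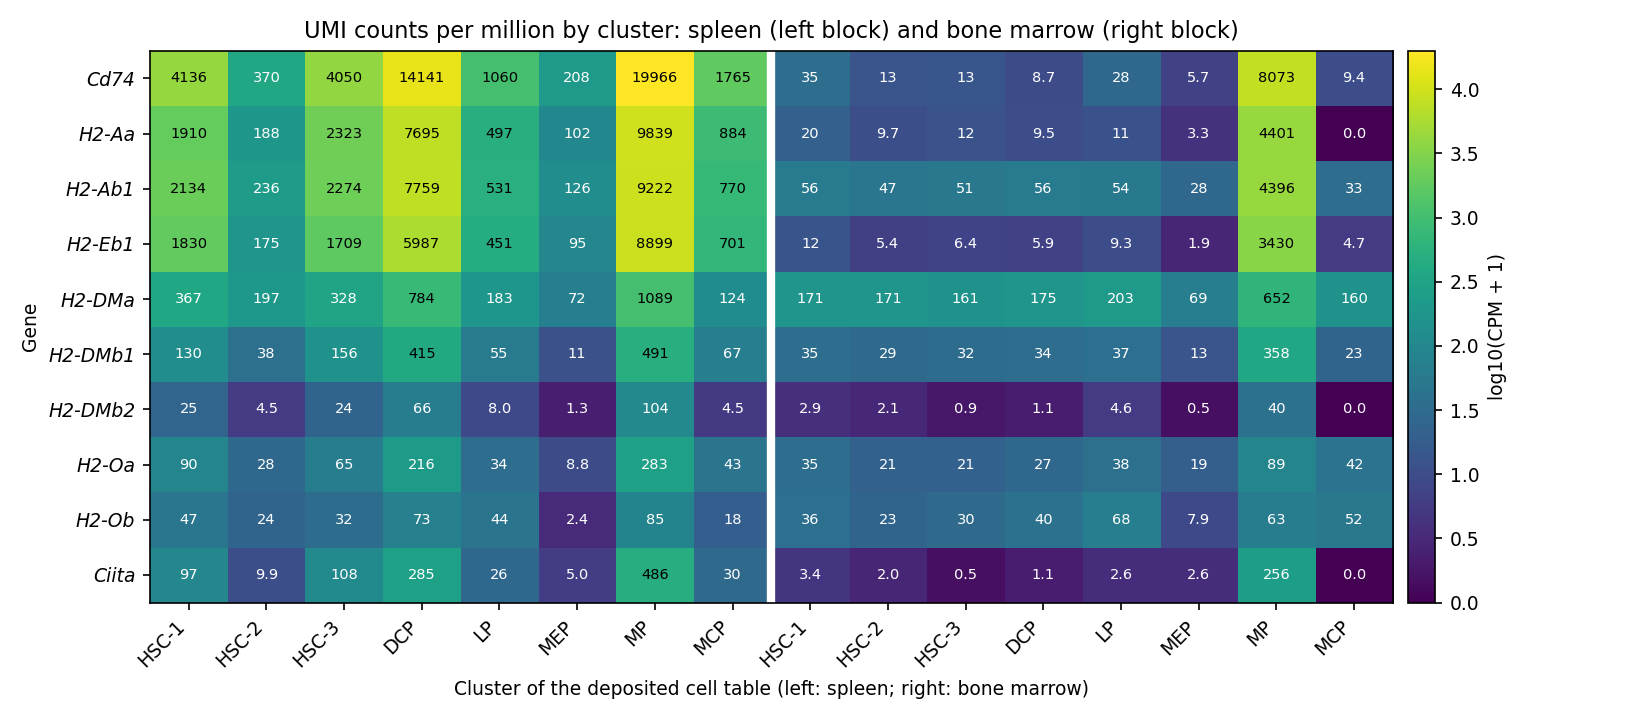
Heat map of the 10 genes (rows) by deposited cluster (columns), with the 8 spleen clusters in the left block and the 8 bone marrow clusters in the right block; each cell gives the CPM and the colour their log10 after adding 1. The upper rows are bright in many spleen columns and in the MP column of bone marrow, while the H2-DMa row is visible in every column, from 69.3 to 1089 CPM.

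Summed over Cd74, H2-Aa, H2-Ab1 and H2-Eb1, called the presenting genes below, the 16 library-by-cluster groups had a clear order at the top. Spleen MP had 47926 CPM, spleen DCP 35581 CPM and bone marrow MP 20300 CPM. Spleen HSC-3 followed with 10356 CPM and spleen HSC-1 with 10011 CPM. Every one of these steps exceeded the counting error. Then came spleen MCP at 4121, LP at 2540, HSC-2 at 969 and MEP at 531 CPM, all above the highest bone marrow cluster outside MP, which was HSC-1 at 123 CPM. From bone marrow HSC-3 at 83 CPM to MCP at 47.0 CPM neighbouring clusters overlapped in their intervals, and bone marrow MEP was lowest, at 38.6 CPM. Bone marrow MCP rests on 36 cells.

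Ciita ranked the groups much as the presenting genes did, with 486 CPM in spleen MP, 285 CPM in spleen DCP and 256 CPM in bone marrow MP, the last 2 overlapping. Outside MP, bone marrow Ciita lay between 0 and 3.35 CPM, and its intervals overlapped from cluster to cluster. Cells with a Ciita UMI held most presenting RNA. In spleen the 2124 cells with one had 40870 CPM of the presenting genes, and the 4422 cells without one had 625 CPM. In bone marrow MP the 76 cells with one had 25020 CPM, and the 42 cells without one had 5864 CPM. In bone marrow HSC-1 the difference was small, with 142 CPM in the 84 cells with a Ciita UMI and 122 CPM in the 4965 without. A UMI is missed more often in shallow cells, so both sets hold cells of unequal depth.

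The deposited cell table gives each cell the name of its nearest reference type in a mouse cell atlas. These labels were themselves made from the RNA of the cells, so a split by label is a description. In spleen 2046 cells, or 31.3%, had an atlas label naming dendritic cells, macrophages, monocytes or B cells, and these held 97.7% of the UMIs of the presenting genes. They averaged 44858 CPM of the presenting genes, against 436 CPM in the other 4500 spleen cells. In bone marrow 279 cells, or 2.77%, had such a label and held 71.1%, with 5540 CPM against 110 CPM in the other cells. The spleen's class II RNA thus lay in a minority of cells at very high level. The label behind it was chiefly a Cst3-high dendritic type, with 1820 cells and 45653 CPM in spleen, and 59 cells and 26907 CPM in bone marrow. A further 116 spleen cells had a Plbd1-high macrophage label, at 46670 CPM, and 53 a dividing dendritic label, at 39604 CPM.

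Such cells were not confined to MP. In spleen HSC-1 237 cells, or 15.4%, had one of these labels and 42856 CPM of the presenting genes, which was 97.3% of that cluster's presenting RNA. The other 1302 spleen HSC-1 cells had 346 CPM, against 123 CPM in bone marrow HSC-1, where no cell had such a label. In spleen DCP 235 of 302 cells were labelled, at 43483 CPM, and the other 67 had 268 CPM. In spleen HSC-3 105 cells were labelled, at 37489 CPM, and the other 313 had 486 CPM. In bone marrow the labelled cells of MP had 26860 CPM, but the 187 labelled cells of HSC-2, whose labels name monocyte progenitors, had 37.8 CPM, below the 80.7 CPM of the rest of that cluster.

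**Figure D2:**
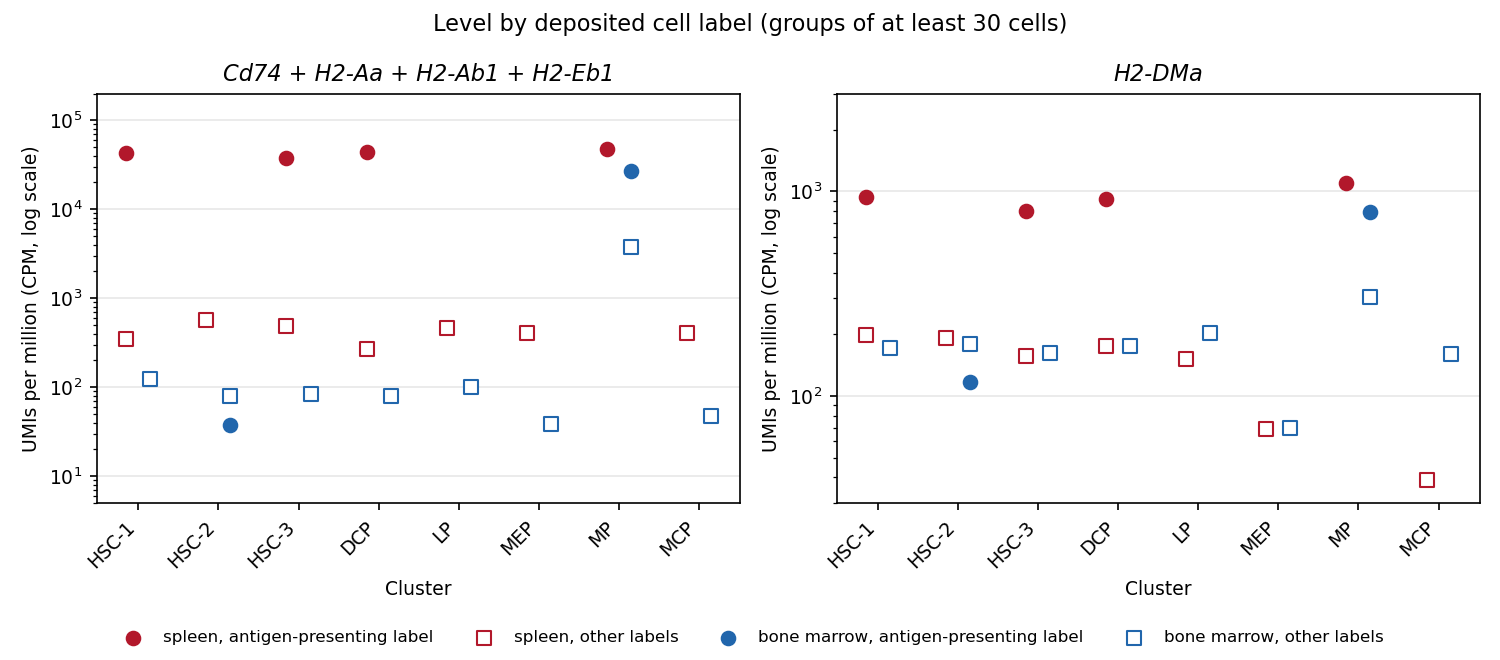
Levels in CPM on a log axis, by cluster, of the 4 presenting genes summed (left) and of H2-DMa (right); red is spleen and blue bone marrow, filled circles are cells whose atlas label names dendritic cells, macrophages, monocytes or B cells, and open squares are all other cells, for groups of at least 30 cells. Filled spleen circles sit between 37489 and 48128 CPM on the left, about 2 powers of 10 above the open squares, whereas H2-DMa in the open squares of both tissues lies mostly between 151 and 203 CPM.

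Cell by cell the distribution was split. In spleen HSC-1 the median cell had 252 CPM of the presenting genes and the cell at the 90th percentile 40138 CPM. In spleen MP the 10th percentile was 38418 CPM and the median 48076 CPM, so nearly all of its cells were high. In bone marrow MP the 10th percentile was 241 CPM, the median 18945 CPM and the 90th percentile 38057 CPM, a mixture of low and high cells. No bone marrow HSC-1 cell exceeded 3046 CPM. With every cell thinned to 1500 UMIs, 2074 spleen cells, or 33.3%, had at least 10 UMIs of the presenting genes, against 83 bone marrow cells, or 0.826%. Of 5032 thinned bone marrow HSC-1 cells, 0 had as many, and a count of 0 leaves room for up to 0.0596%.

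The markers in MP were those of conventional dendritic cells. The chemokine receptor Xcr1 had 295 CPM in spleen MP and 174 CPM in bone marrow MP, the dead-cell receptor Clec9a 255 CPM in spleen and 133 CPM in bone marrow, and the transcription factor Batf3 221 CPM in spleen and 104 CPM in bone marrow. Of 13 such markers, 10 were above 10 CPM in spleen MP, with a sum of 2626 CPM, and 11 in bone marrow MP, with 1804 CPM. Cd209a was at 0.776 CPM in spleen MP and at 0 in bone marrow MP. Of 10 B cell markers, 1 exceeded 10 CPM in spleen MP (sum 34.8 CPM) and 4 in bone marrow MP (sum 108 CPM), and of 10 macrophage or monocyte markers 2 did in each (152 CPM in spleen, 408 CPM in bone marrow). The sort genes were present, Kit at 189 CPM in spleen MP and 210 CPM in bone marrow MP, and Ly6a at 144 CPM in spleen MP and 124 CPM in bone marrow MP. Hlf, a stem cell factor, was at 2.13 CPM in spleen MP and 249 CPM in bone marrow MP. In HSC-1 the dendritic list summed to 649 CPM in spleen, with 10 of 13 markers above 10 CPM, and to 404 CPM in bone marrow, with 3 of 13. The labelled cells held 97.3% of the presenting RNA of spleen HSC-1, as given above.

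Within clusters of at least 100 cells in each library, the presenting genes were at least 2-fold higher in spleen in all 7. In HSC-1 9 of 10 genes were higher, against 2.27% of genes measured, and 0 were lower, against 0.711%, with a median log2 ratio of 3.60. In HSC-3 9 of 10 were higher, against 2.78%, and 0 were lower, against 2.31%, with a median of 4.56. In DCP 9 of 10 were higher, against 7.91%, and 0 were lower, against 16.5%, with a median of 6.03. In each of these H2-Ob was the gene that was not, at log2 ratios of 0.40, 0.11 and 0.85. Of the genes called, Ciita and H2-DMb2 had at most 3.35 CPM in bone marrow and passed the limit of 10 CPM only through spleen. So did H2-Eb1 in HSC-3 and DCP, at 6.43 and 5.89 CPM in bone marrow. In DCP the same held for Cd74, at 8.69 CPM, and H2-Aa, at 9.54 CPM. Without the labelled cells 8 genes were measured in each, of which 3 were higher in HSC-1, against 0.723% of genes, 4 in HSC-3, against 1.12%, and 3 in DCP, against 1.83%. All 3 in DCP passed the limit only through spleen. These were Cd74, H2-Aa and H2-Eb1, at 8.75, 9.60 and 5.93 CPM in bone marrow, with 63, 54 and 28 UMIs in 67 spleen cells. H2-Eb1 in HSC-3, at 6.46 CPM in bone marrow, also passed only through spleen. H2-Ab1 in HSC-1 was then at 113 CPM in spleen and 56.3 CPM in bone marrow, just under 2-fold.

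In HSC-2 4 of 8 measured genes were higher, against 0.589% of genes, and 0 were lower, against 0.659%. These were the 4 presenting genes, and H2-DMa was at 197 CPM in spleen and 171 CPM in bone marrow. H2-Aa and H2-Eb1, at 9.66 and 5.40 CPM in bone marrow HSC-2, passed the limit of 10 CPM only through spleen. In LP 0 of 9 were lower, against 4.93%, and 5 were higher, against 3.54%, namely the presenting genes and Ciita. Ciita, at 26.1 CPM in spleen and 2.59 CPM in bone marrow, passed the limit only through spleen. So did H2-Eb1, at 9.35 CPM in bone marrow LP. There H2-Ob had 44.4 CPM in spleen and 67.6 CPM in bone marrow, a ratio of 0.66 (0.56 to 0.77) that did not reach 2-fold. In MEP 4 of 7 were higher, against 1.25%, and 1 was lower, against 4.7%. Of the higher ones Cd74, H2-Aa and H2-Eb1, at 5.72, 3.34 and 1.91 CPM in bone marrow, passed the limit only through spleen. The lower one was H2-Oa, at 8.82 CPM or 279 UMIs in spleen and 19.1 CPM or 80 UMIs in bone marrow. H2-Oa passed the limit there only through bone marrow, so the limit favours this call of lower.

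For the presenting genes the tissues were nearest each other in MP. Of all 10 genes 6 were higher in spleen in this cluster, against 2.61% of genes. There 0 were lower, against 14.4%, and the median log2 ratio was 1.11. Cd74 had a ratio of 2.47 (2.42 to 2.53) and H2-Oa of 3.18 (2.57 to 3.97), while H2-DMa, H2-DMb1, H2-Ob and Ciita lay between 1.36 and 1.90. The spleen cluster held 14 cells without an antigen-presenting label out of 1413, the bone marrow cluster 38 out of 118. Between these few cells 1 of the 10 genes was higher in spleen, against 14.6% of genes. That gene, H2-DMb2, had 3 UMIs in spleen and 1 in bone marrow, and H2-DMb1 had 3 UMIs in spleen and 29 in bone marrow, a ratio of 0.39 (0.075 to 1.25), so neither is read as a difference. Between the labelled cells alone, H2-Oa had 284 CPM in spleen and 100 CPM in bone marrow, a ratio of 2.83 (2.24 to 3.63). H2-Oa was the member past 2-fold there. Cd74 had a ratio of 1.87, H2-Eb1 of 1.97, Ciita of 1.45, H2-DMb1 of 1.08 (0.96 to 1.21) and H2-Ob of 1.06 (0.81 to 1.41).

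**Figure D3:**
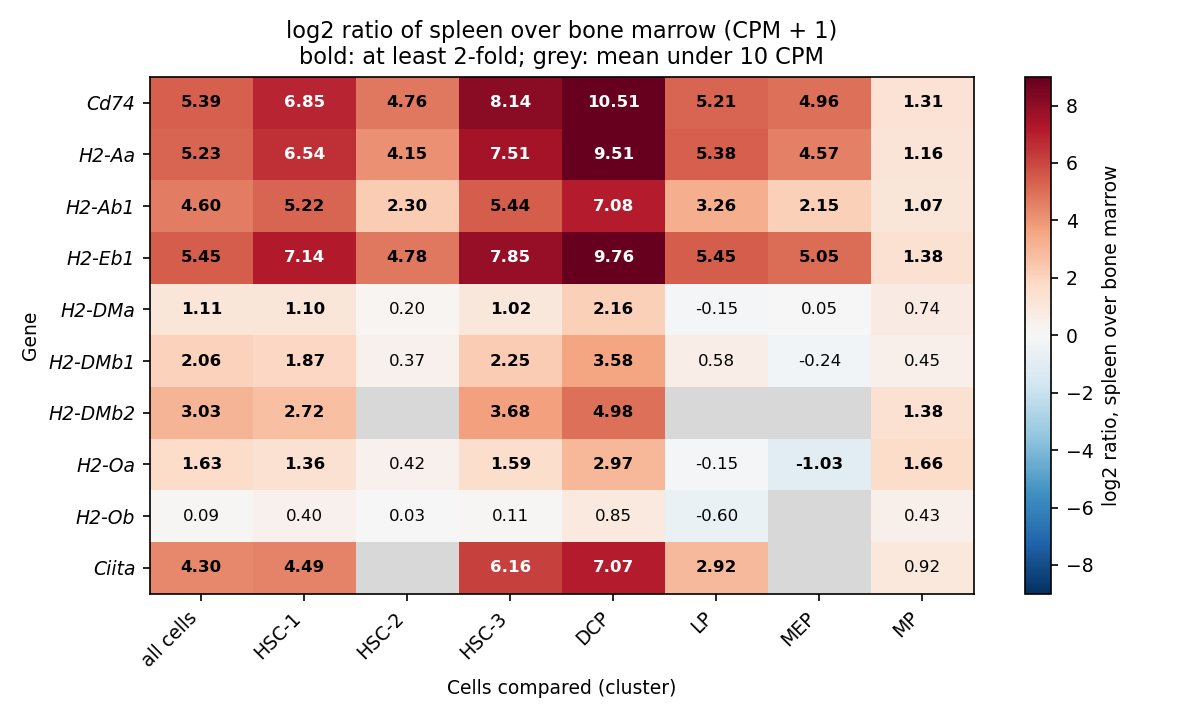
Heat map of the log2 ratio of spleen over bone marrow, on CPM + 1, for the 10 genes (rows) over all cells and in the 7 clusters compared (columns); red is higher in spleen, blue lower, bold marks at least 2-fold, and grey marks a mean under 10 CPM. The 4 presenting genes are bold in every column, from 1.07 in MP to 10.51 in DCP, H2-Ob is bold in none, and H2-Oa is bold and blue in MEP, at -1.03.

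In bone marrow the H2-DM genes and H2-Oa were, like the presenting genes, highest in MP, but H2-DMa was also present in the clusters with little presenting RNA. In bone marrow MP H2-DMa had 652 CPM, H2-DMb1 358 CPM, H2-DMb2 39.5 CPM and H2-Oa 89.2 CPM, while the highest of the other bone marrow clusters had 203 CPM of H2-DMa, 36.6 CPM of H2-DMb1, 4.57 CPM of H2-DMb2 and 42.3 CPM of H2-Oa. H2-DMa made up 42.2% to 53.0% of the UMIs of all 10 genes in the bone marrow clusters outside MP, against 2.16% in spleen MP and 3.0% in bone marrow MP. Its level in the bone marrow clusters outside MP ran from 160 CPM in MCP to 203 CPM in LP, except in MEP, at 69.3 CPM. The intervals of neighbouring clusters overlapped from DCP, at 175 CPM, down to MCP, and LP lay above DCP. Among cells without an antigen-presenting label the tissues were alike in size: H2-DMa had 198 CPM in spleen HSC-1 and 171 CPM in bone marrow HSC-1, 193 CPM in spleen HSC-2 and 179 CPM in bone marrow HSC-2, and 176 CPM in DCP of either tissue. In LP it had 151 CPM in spleen and 203 CPM in bone marrow, and in MEP 68.7 CPM in spleen and 69.3 CPM in bone marrow. Spleen MCP, with the shallowest cells, had 39.0 CPM against 160 CPM in bone marrow MCP.

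H2-O was uneven too. H2-Ob UMIs per H2-Oa UMI, a ratio that can be compared between groups but not read as a level, were 0.30 in spleen MP, 0.34 in spleen DCP and 0.53 in spleen HSC-1. In bone marrow they were 0.70 (0.50 to 0.99) in MP, 1.49 (1.14 to 1.96) in DCP and 1.04 (0.95 to 1.14) in HSC-1. LP had the highest ratio in spleen, at 1.32 (1.09 to 1.59), and in bone marrow, at 1.80 (1.5 to 2.16). In bone marrow LP overlapped DCP, HSC-3, at 1.42 (1.22 to 1.67), and MCP, at 1.22 (0.46 to 3.34). MEP was low in both, at 0.27 in spleen and 0.41 in bone marrow. Spleen MP and DCP therefore had more H2-Oa relative to H2-Ob than the progenitor clusters of bone marrow other than MEP. H2-DMb1 UMIs per H2-DMb2 UMI were 4.70 (4.46 to 4.96) in spleen MP and 9.05 (6.49 to 12.9) in bone marrow MP, and 12 (9.49 to 15.3) in bone marrow HSC-1.

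Shares of cells were compared at 1500 UMIs per cell, which left out 323 spleen cells, 196 of them in MCP, and 38 bone marrow cells. Any of the 10 genes was found in 63.9% of spleen cells and 42.6% of bone marrow cells. As deposited the shares were 91.8% in spleen and 86.1% in bone marrow, so they move with depth. Cd74 was found in 99.6% of spleen MP cells and 85.2% of bone marrow MP cells, and in 79.4% of spleen DCP cells and 1.07% of bone marrow DCP cells. H2-DMa was found in 32.5% of spleen HSC-1 cells and 22.3% of bone marrow HSC-1 cells, and Ciita in 8.18% of spleen HSC-1 cells and 0.477% of bone marrow HSC-1 cells.

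Erythroid cells should lack class II, so a share at or below that of MEP is read here as background. Free RNA itself was not measured. In cells without an antigen-presenting label, Cd74 was found in 11.5% (9.73 to 13.5) of spleen HSC-1 cells and 5.78% (4.34 to 7.53) of spleen MEP cells. The CPM ran the other way, at 120 in spleen HSC-1 and 153 in spleen MEP. Share and level of Cd74 thus disagree, and no order is read for spleen HSC-1, although its share was above that of MEP with separate intervals. In spleen MEP 26 thinned cells had at least 10 UMIs of the presenting genes, while 9 cells were labelled. Some high cells therefore remain in the MEP level. In spleen HSC-1 these numbers were 242 and 237. Other spleen clusters varied. Both measures exceeded those of MEP in HSC-2, at 204 CPM and 9.92% (7.83 to 12.3), and in LP, at 163 CPM and 14.0% (11.4 to 16.9). The same held for HSC-3, at 179 CPM and 10.5% (7.37 to 14.5), and MCP, at 159 CPM and 11.7% (8.49 to 15.6). The HSC-3 share overlapped that of MEP, and the CPM of LP and MCP lay near that of MEP. MP, with 12 such cells after thinning, is left out. DCP had 71.6 CPM and 6.06% (1.68 to 14.8). What part of the spleen level outside labelled cells is background was not tested. As deposited 58.2% of these spleen MEP cells had a Cd74 UMI, at a median depth of 36164 UMIs, against 34.5% of the spleen HSC-1 cells at 6562 UMIs. For Cd74 in bone marrow, share and level ran the same way. It was found in 5.19% (4.59 to 5.84) of HSC-1 cells and 0.287% (0.00725 to 1.59) of MEP cells, with 34.9 CPM in HSC-1 and 5.72 CPM in MEP. As deposited the bone marrow shares were 12.9% in HSC-1, at a median depth of 4794 UMIs, and 4.48% in MEP, at 11230 UMIs. H2-Ab1 was found in 8.21% of bone marrow HSC-1 cells and 2.29% of bone marrow MEP cells, and H2-DMa in 22.3% of HSC-1 cells and 10.6% of MEP cells there. H2-Oa, at 4.81% (4.23 to 5.44) in HSC-1 and 5.73% (3.54 to 8.71) in MEP of bone marrow, did not exceed the MEP share. Its CPM ran the other way, at 34.5 (32.3 to 36.8) in HSC-1 and 19.1 (15.1 to 23.7) in MEP. No order is therefore read for H2-Oa either.

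**Figure D4:**
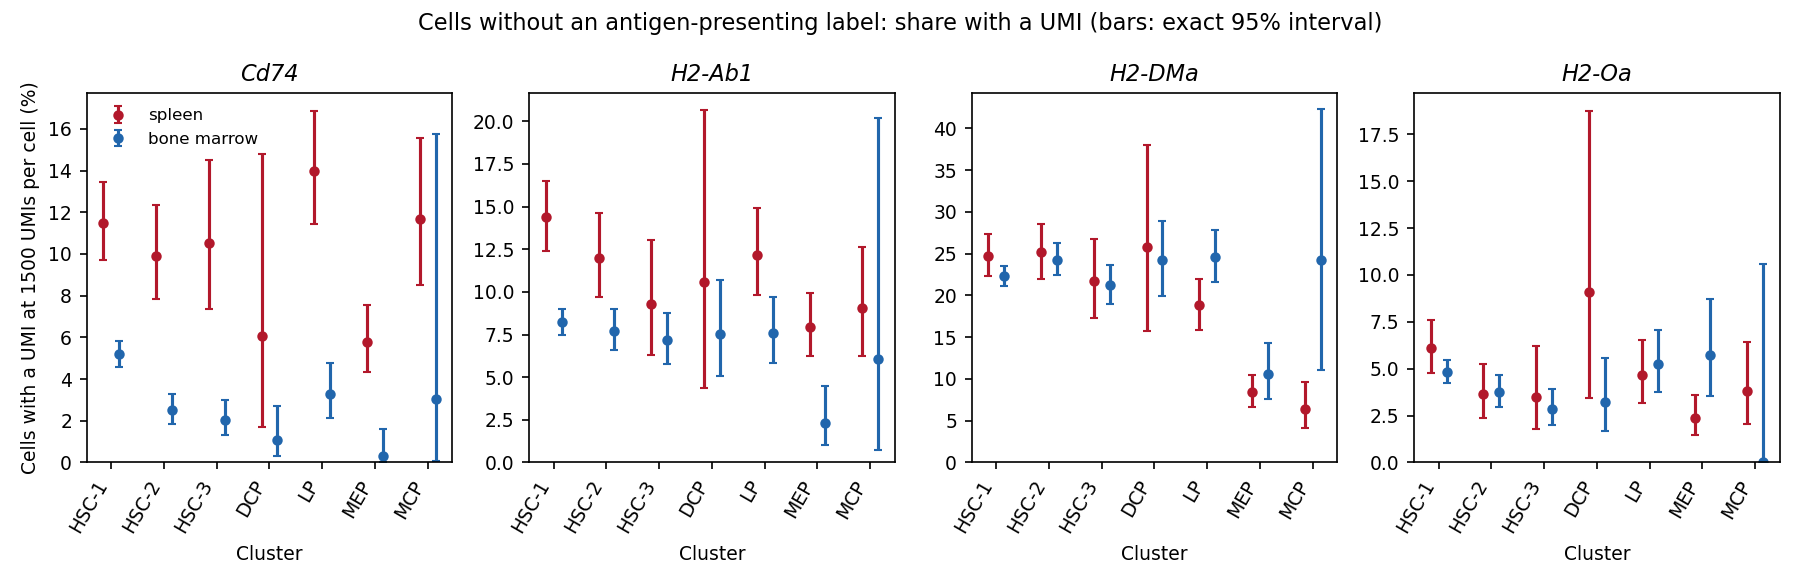
Share of cells with at least 1 UMI of Cd74, H2-Ab1, H2-DMa and H2-Oa after thinning to 1500 UMIs, in cells without an antigen-presenting atlas label, by cluster; points are the shares in spleen (red, left of each pair) and bone marrow (blue), and bars are exact 95% intervals. Cd74 is above the bone marrow share in spleen HSC-1 (11.5% against 5.19%) and spleen MEP (5.78% against 0.287%), while H2-DMa is near 1 level in HSC-1 (24.8% in spleen, 22.3% in bone marrow).

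A single source of free RNA keeps its genes in 1 proportion, so the proportions were set side by side. Cd74 UMIs per H2-Aa UMI were 2.01 (1.92 to 2.12) in the other cells of spleen MEP and 1.94 (1.75 to 2.16) in those of spleen HSC-1, against 2.03 (2.02 to 2.04) in labelled spleen MP cells. H2-Ab1 UMIs per H2-Aa UMI were 1.34 (1.27 to 1.41) in the other cells of spleen MEP and 1.82 (1.63 to 2.03) in those of spleen HSC-1, against 0.94 (0.93 to 0.94) in labelled spleen MP cells. In bone marrow the same ratio was 2.88 (2.6 to 3.19) in HSC-1, 4.61 (3.93 to 5.43) in the other cells of HSC-2 and 8.29 (4.74 to 15.6) in MEP, against 1.00 (0.96 to 1.04) in labelled MP cells. H2-Ab1 therefore exceeded the proportion of MP cells in each of these groups, but not clearly in all clusters. In the other cells of spleen LP this ratio was 1.11 (0.99 to 1.24), only just above that of labelled spleen MP cells. In those of spleen MCP it was 0.99 (0.77 to 1.26), which overlaps it, and in those of spleen HSC-2 1.46 (1.34 to 1.59). What part of the low counts is free RNA was not tested.

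Along chromosome 17 the class II genes are interleaved with genes of class I presentation. In order of position the log2 ratios over all cells were 1.63 for H2-Oa, -0.26 for Brd2, a bromodomain gene, 1.11 for H2-DMa, 3.03 for H2-DMb2 and 2.06 for H2-DMb1. Then came 0.74 for the proteasome subunit gene Psmb9, 0.30 for the peptide transporter gene Tap1, 0.61 for Psmb8, 0.07 for Tap2 and 0.09 for H2-Ob. The 3 genes at the far end had 4.60 (H2-Ab1), 5.23 (H2-Aa) and 5.45 (H2-Eb1). None of the 5 measured neighbours reached 2-fold over all cells, against 4.15% of genes higher and 6.55% lower. In DCP 3 were higher, against 7.91% of genes. Psmb9 had 495 CPM in spleen and 157 CPM in bone marrow there, and Psmb8 905 CPM in spleen and 335 CPM in bone marrow. Tap1 had 315 CPM in spleen and 151 CPM in bone marrow. The antisense model Gm20513 had 0.721 CPM in spleen and 0.0678 CPM in bone marrow.

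**Figure D5:**
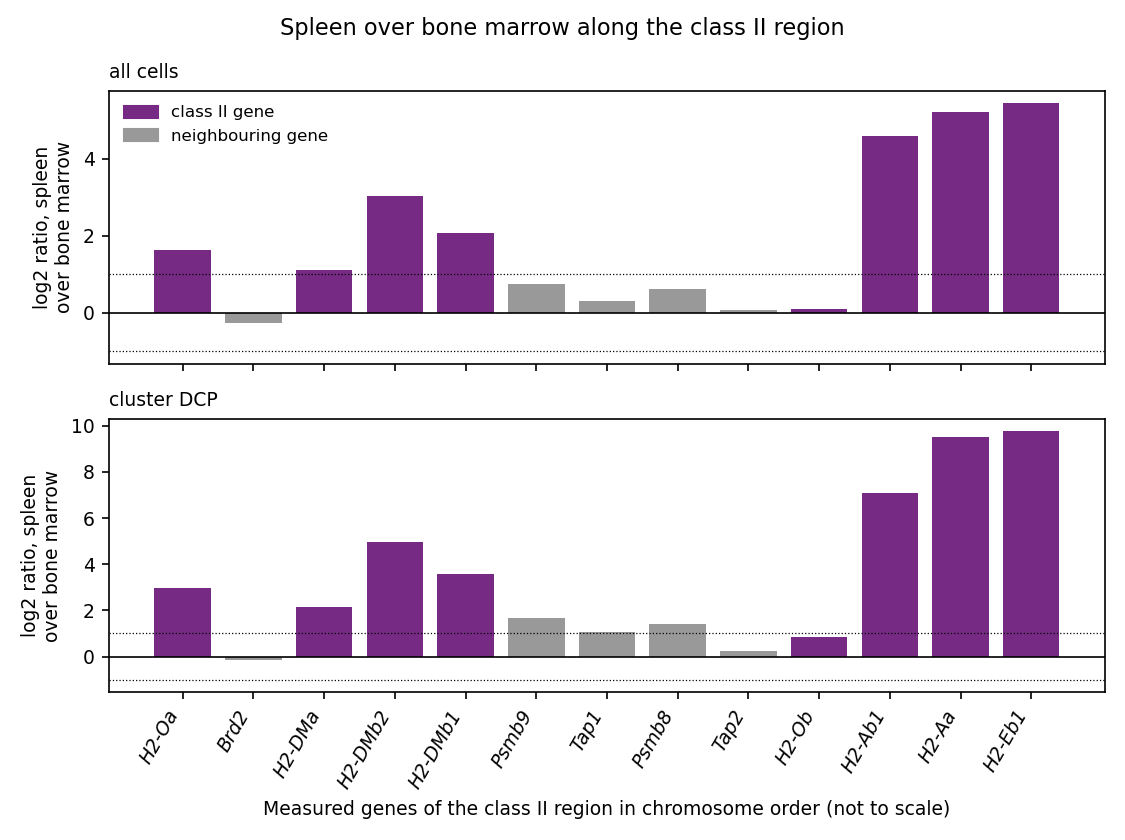
Bars give the log2 ratio of spleen over bone marrow, on CPM + 1, for the measured genes of the class II region in chromosome order (not to scale), over all cells (top) and in DCP (bottom); purple bars are class II genes, grey bars neighbouring genes, and dotted lines mark 2-fold. Grey bars stay within the dotted lines over all cells, from -0.26 to 0.74, and 3 of them pass the upper line in DCP, up to 1.66.

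The factors that hold Ciita on the promoter differed little between the tissues, as most genes did. Of 6 measured genes of the RFX, CREB and NF-Y complex 0 were higher over all cells, against 4.15% of genes. Likewise 0 were lower, against 6.55%, so these counts are near the shares of all genes. The list's median log2 ratio was -0.23, beside -0.11 for all genes. Rfx5, a subunit of RFX, had 14.1 CPM in spleen and 24.2 CPM in bone marrow, and Rfxap, another, 51.4 CPM in spleen and 38.6 CPM in bone marrow. Creb1 had 50.5 CPM in spleen and 68.6 CPM in bone marrow. The NF-Y subunits Nfya, Nfyb and Nfyc had log2 ratios of -0.51, -0.03 and 0.11. Rfxank, at 5.54 CPM in spleen and 7.50 CPM in bone marrow, was under the limit for calls. The 8 coactivator genes that work with Ciita were Crebbp, Ep300, Kat2b, Smarca4, Carm1, Ncoa1, Ccnt1 and Cdk9. Of these 0 passed 2-fold, against the same shares of all genes. The log2 ratios of the 8 ran from -0.83 for Crebbp to 0.35 for Carm1.

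Of 10 measured genes known to regulate Ciita itself, 2 were higher in spleen over all cells, against 4.15% of genes, and 0 lower, against 6.55%. Irf8, a factor of the dendritic and monocyte lineage, had 346 CPM in spleen and 54.5 CPM in bone marrow. Ifngr1, a chain of the interferon gamma receptor, had 315 CPM in spleen and 120 CPM in bone marrow. Spi1, Irf1, Irf2, Jak1, Jak2, Ifngr2, Usf1 and Bach2 stayed between -0.98 (Bach2) and 0.52 (Jak2) in log2 ratio, and Irf4, Pax5 and Prdm1 were below 2 CPM in both. In MP 1 of 10 was lower, against 14.4% of genes, namely Bach2 at 6.59 CPM in spleen and 18.3 CPM in bone marrow. Bach2 passed the limit of 10 CPM there only through bone marrow. There 1 of 10 was higher, against 2.61%, namely Ifngr1 at 830 CPM in spleen and 405 CPM in bone marrow. Irf8 had 1311 CPM in spleen MP and 1162 CPM in bone marrow MP.

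Interferon gamma induces Ciita in many cell types, and its target genes gave a mixed picture. Of 8 measured targets 1 was higher over all cells, against 4.15% of genes, namely Cxcl9 at 89.1 CPM in spleen and 0.637 CPM in bone marrow. Cxcl9 passed the limit for calls only through spleen. Gbp2, Gbp3, Socs1, Igtp, Iigp1, Irgm1 and Irf1 lay between -0.82 (Iigp1) and 0.30 (Irgm1) in log2 ratio, and the list's median was -0.29, beside -0.11 for all genes. Cxcl10 had 7.60 CPM in spleen and 1.75 CPM in bone marrow. In MP 1 of 9 was higher, against 2.61% of genes, and 4 were lower, against 14.4%. The higher one was Cxcl9, at 406 CPM in spleen and 37.5 CPM in bone marrow. The 4 lower ones were Gbp2, Gbp3, Igtp and Iigp1, the last at 24.4 CPM in spleen and 113 CPM in bone marrow.

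Genes that process antigen and Cd74 in the endosome were partly higher. Of 8 measured, 3 were higher in spleen over all cells, against 4.15% of genes. The protease inhibitor Cst3 had 4511 CPM in spleen and 401 CPM in bone marrow. Ctss, the protease that trims Cd74, had 169 CPM in spleen and 56.0 CPM in bone marrow, and Ctsh 102 CPM in spleen and 19.1 CPM in bone marrow. Ctsl, Ctsb, Ctsd, Ctsz and Sppl2a lay between -0.53 (Ctsd) and 0.75 (Ctsz) in log2 ratio, Lgmn had 10.6 CPM in spleen and 4.96 CPM in bone marrow, and Ifi30 was not found by symbol. March1, a ubiquitin ligase that removes class II from the surface, had 63.6 CPM in spleen and 3.32 CPM in bone marrow. Its relative March8 had 10.8 CPM in spleen and 7.54 CPM in bone marrow. Cd83, which opposes March1, had 13.5 CPM in spleen and 0.624 CPM in bone marrow. In MP 3 of 9 processing genes were higher (Ctsh, Lgmn and Cst3), against 2.61% of genes. Lower was 1, against 14.4%, namely Ctsd at 10.9 CPM in spleen and 74.0 CPM in bone marrow. Among costimulatory genes 2 of 3 measured were higher over all cells, against 4.15% of genes. Cd86 had 29.8 CPM in spleen and 11.3 CPM in bone marrow, and Icosl 17.8 CPM in spleen and 5.57 CPM in bone marrow. Icosl passed the limit of 10 CPM only through spleen, so the limit favours its call of higher. Cd274, which encodes PD-L1, had 15.0 CPM in spleen and 23.8 CPM in bone marrow. Cd40 had 5.77 CPM in spleen and 0.0407 CPM in bone marrow, Cd80 3.69 CPM in spleen and 0.176 CPM in bone marrow, and Pdcd1lg2, Tnfsf4 and Tnfsf9 were under 6 CPM in both.

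Across the 16 library-by-cluster groups, 8494 genes were ranked by Pearson's r of log2(CPM + 1) with the presenting genes. The groups share 2 libraries and rest on the same clustering, so r is a description. The 8 nearest were Plbd1 (0.995), Pid1 (0.994), Batf3 (0.991), Ifi205 (0.99), Xcr1 (0.989), Dnase1l3 (0.989), Clec9a (0.988) and Gpr141b (0.988). Plbd1 had 829 CPM in spleen MP and 516 CPM in bone marrow MP, but 649 CPM in spleen DCP and 1.12 CPM in bone marrow DCP, the pattern of the presenting genes. The genes nearest Ciita were Plbd1 (0.988), Pid1 (0.987) and Clec9a (0.986). Among the members r with the presenting genes was 0.98 for Ciita, 0.93 for H2-DMb2, 0.89 for H2-DMb1, 0.78 for H2-Oa, 0.77 for H2-DMa and 0.37 for H2-Ob. H2-Oa was nearest to Stx7 (0.971), Rnase6 (0.968) and Pde1b (0.961), and H2-Ob to Arid4a (0.960), Themis2 (0.954) and Tox4 (0.954). Arid4a, at 260 CPM in spleen MP and 245 CPM in bone marrow MP, was at 56.5 CPM in spleen MEP and 94.1 CPM in bone marrow MEP, low in the erythroid cluster as H2-Ob was.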

How the data were processed

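RNA was measured in 2 Chromium 3′ libraries, 1 per tissue. The deposited tables hold UMI counts, whole numbers without normalization. The authors sequenced about 27000 reads per cell and counted them with Cell Ranger 3.1.0 on mm10, as the series design text says. The submitters' processing notes list Seurat 3.1.5 and mm9, which conflicts, and the kit is version 3 in one place and 3.1 in another. Cluster and reference labels come from the deposited cell table. Filters on cells, doublet treatment and the making of the labels are not given in the sources used here, and no doublet caller was run. The integrated matrix was not used.

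Symbols and coordinates come from GENCODE M21 (mm10). Of 31053 identifiers, 31011 had a symbol. Counts were summed over cells and scaled to CPM with Python 3.11.15, numpy 2.4.6, pandas 2.3.3 and scipy 1.17.1. The TMM alternative used edgeR 4.0.16 for its scaling factor only. The named genes were the 10 members, every gene of each list except 1 that is not reported here, and by likeness the 8 genes nearest the presenting genes and the 3 nearest Ciita, H2-Oa and H2-Ob. Members and lists were chosen with earlier results of these data known. The size rule was run on simulated counts. Over all cells 50 of 50 genes changed 3-fold were recovered in each direction, and 0 of 8368 unchanged genes were called. The simulation drew both libraries from 1 shared mean with counting error only, which is small at this depth. It holds no spread between mice or cells, so it checks the working of the rule and not the rate of false calls in these data. Alternatives were scaling, depth, pseudocount, filter, fold and the cells kept.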

Additional observations from a re-analysis of the deposited data

Results flagged for a closer look

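H2-Oa in MEP had 8.82 CPM in spleen and 19.1 CPM in bone marrow, a log2 ratio of -1.03, although it was at least 2-fold higher in spleen in 4 other clusters, with log2 ratios of 1.36 in HSC-1, 1.59 in HSC-3, 2.97 in DCP and 1.66 in MP. The opposite direction drew attention to it. The difference between clusters was not tested, since each tissue has 1 library. The counts behind it were 279 UMIs in spleen and 80 UMIs in bone marrow, and the ratio of 0.46 had an interval of 0.36 to 0.60. At 8.82 CPM in spleen, H2-Oa passed the limit of 10 CPM only through bone marrow, which favours a call of lower. In the same cluster H2-Ob had 2.40 CPM in spleen and 7.86 CPM in bone marrow, and H2-DMa 71.6 CPM in spleen and 69.3 CPM in bone marrow. The median depth of MEP cells was 36084 UMIs in spleen and 11230 UMIs in bone marrow, and its part in the ratio was not tested. With every cell counted alike the log2 ratio was -0.86 and with a pseudocount of 10 CPM -0.63, both short of 2-fold.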

How the results depend on the processing

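No paired analysis was possible because each tissue has 1 library and no replicate numbers. The number of genes higher in spleen over all cells, 359, was 541 with TMM scaling, which shifts the median log2 ratio of all genes to 0.10, 727 with a filter at 1 CPM, 775 with no filter, 937 at 1.5-fold, 152 at 4-fold and 190 with each cluster weighted alike. The 9 members higher over all cells became 5 without MP and DCP, and 4 without cells with an antigen-presenting atlas label or with one in either label set. Without such cells, by either definition, the counts were 3 in HSC-1, 4 in HSC-3, 3 in DCP and 1 in MP, and MP had 0 at 4-fold. Over all cells the log2 ratios then turned, to -0.49 without atlas labels and -0.50 without either label for H2-DMa, to -0.63 and -0.65 for H2-DMb1, to -0.012 and -0.032 for H2-DMb2, and to -0.56 and -0.57 for H2-Oa. H2-Ob, not called at 0.09, was then lower, at -1.02 and -1.03. Among cells without these atlas labels, MEP held 31396070 of 61148769 UMIs in spleen and 4197488 of 70295263 in bone marrow. Within HSC-1 the ratios of such cells were 1.16 for H2-DMa, 1.15 for H2-Oa and 1.03 for H2-Ob. Within LP they were 0.74, 0.69 and 0.62, and within MEP 0.99, 0.43 and 0.27. In HSC-3 the log2 ratios turned, by either definition, to -0.050 for H2-DMa and -0.52 for H2-DMb1. In DCP they turned to -0.11 for H2-DMb1 and -1.09 for Ciita. There Ciita had 0 UMIs in 67 spleen cells and 4 UMIs in bone marrow, under the limit for calls. H2-Ab1 in MP turned to -0.015 without atlas labels. The cause was not tested. Of 56 calls of members, 28 were lost without labelled cells, 2 after thinning to 1500 UMIs, 1 after thinning to 3700 UMIs, 2 with cells counted alike, 2 with a pseudocount of 10 CPM and 0 after centring on the median gene. The share of cells with a member UMI was 84.1% in spleen and 71.1% in bone marrow at 3700 UMIs, and 91.8% in spleen and 86.1% in bone marrow as deposited. Depth limits the shares, and 1 library per tissue leaves the spread between mice unknown.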
